A study of Mus musculus with 4 samples.

Results

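Interferon-induced genes are the genes that cells switch on when an interferon reaches its receptor. A fixed list of 36 mouse symbols was followed here, 24 of the type I type and 12 of the gamma type, and its members were found by symbol among the 32589 features of the probe panel. Of the 36, 34 had a row, all 12 of the gamma type and 22 of the type I type, while Mx1 and Mx2 were not analysed here. All 34 had counts, among 20458 features that did.

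The data were spatial transcriptomes of brain sections from mice that had been inoculated with a tumour and operated on to remove it, at day 11. In formalin-fixed sections, pairs of probes were hybridised to their target RNAs, ligated and captured on a grid of barcoded spots, each of which covers several cells. There were 2 capture areas labelled TREAT (TREAT 1+4 and TREAT 2+3) and 2 labelled Vehicle (Vehicle 1+4 and Vehicle 2+3). The series states that 4 animals were sampled, hydrogel-treated and not, and its title calls the hydrogel drugless. The mouse strain, age, sex, tumour line and the hydrogel's make-up are not given in the sources used here. Each area held 2 pieces of tissue, which the labels do not tie to animals, so the capture area was the sample (n = 2 per group) and p-values measure the spread between areas, which may be partly technical. Kept spots numbered 3349 and 3012 in TREAT areas, against 3157 and 3485 in Vehicle areas, with a median of 14992 and 12248 unique molecular identifiers (UMIs) per spot in TREAT areas, against 7381 and 8380 in Vehicle areas.

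Type I interferons (the alpha and beta interferons) bind the receptor made of Ifnar1 and Ifnar2, which activates a complex that holds STAT2 and IRF9 and binds an interferon-stimulated response element in gene promoters. Interferon gamma, made mainly by T cells and natural killer (NK) cells, binds Ifngr1 and Ifngr2 and acts on gamma-activated sites, partly by way of the transcription factor Irf1. The 2 responses overlap, since most genes of either list can be induced by both interferons to some extent, so the names of the lists say which interferon is the classical inducer and not which one acted here. In the brain these genes are known from viral infection, autoimmune inflammation and tumours.

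The 3 zones were set without any interferon-induced gene. Tumour spots were those in patches of at least 10 connected spots whose summed level of 26 proliferation genes, pooled with the 6 neighbouring spots, passed 590 CPM (UMI counts scaled to a common total). Margin spots lay within 3 grid steps of such a patch, and brain spots lay farther away. Tumour spots numbered 370 and 804 in TREAT areas, against 1090 and 1721 in Vehicle areas. The zones fitted their names: 8 neuronal markers summed to 195 to 300 CPM in tumour spots over the 4 areas, against 7244 to 8592 CPM in brain spots, and 14 mesenchymal glioma markers summed to 4379 to 6211 CPM in tumour spots, against 369 to 594 CPM in brain spots.

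The interferon-induced genes marked the tumour in all 4 areas. Every one of the 34 members was higher in tumour than in brain spots in edgeR's quasi-likelihood test with the area as a block (Benjamini-Hochberg adjusted p under 0.05), against 34.0% of the 18467 genes tested that were higher. The median log2 difference was 4.07 over the type I type and 4.67 over the gamma type, against 0.05 over all genes tested. The type I type members summed to 9749 and 9513 CPM in tumour spots of TREAT areas and to 8545 and 8687 CPM in those of Vehicle areas, against 287, 447, 426 and 603 CPM in the brain spots of the same areas. The gamma type members summed to 6153, 7525, 5416 and 5772 CPM in tumour spots, against 123, 224, 185 and 320 CPM in brain spots. No tumour sum came near any brain sum. A spot holds many cells, so more responding cells and more RNA per cell cannot be told apart, here or in any later comparison.

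**Figure D1:**
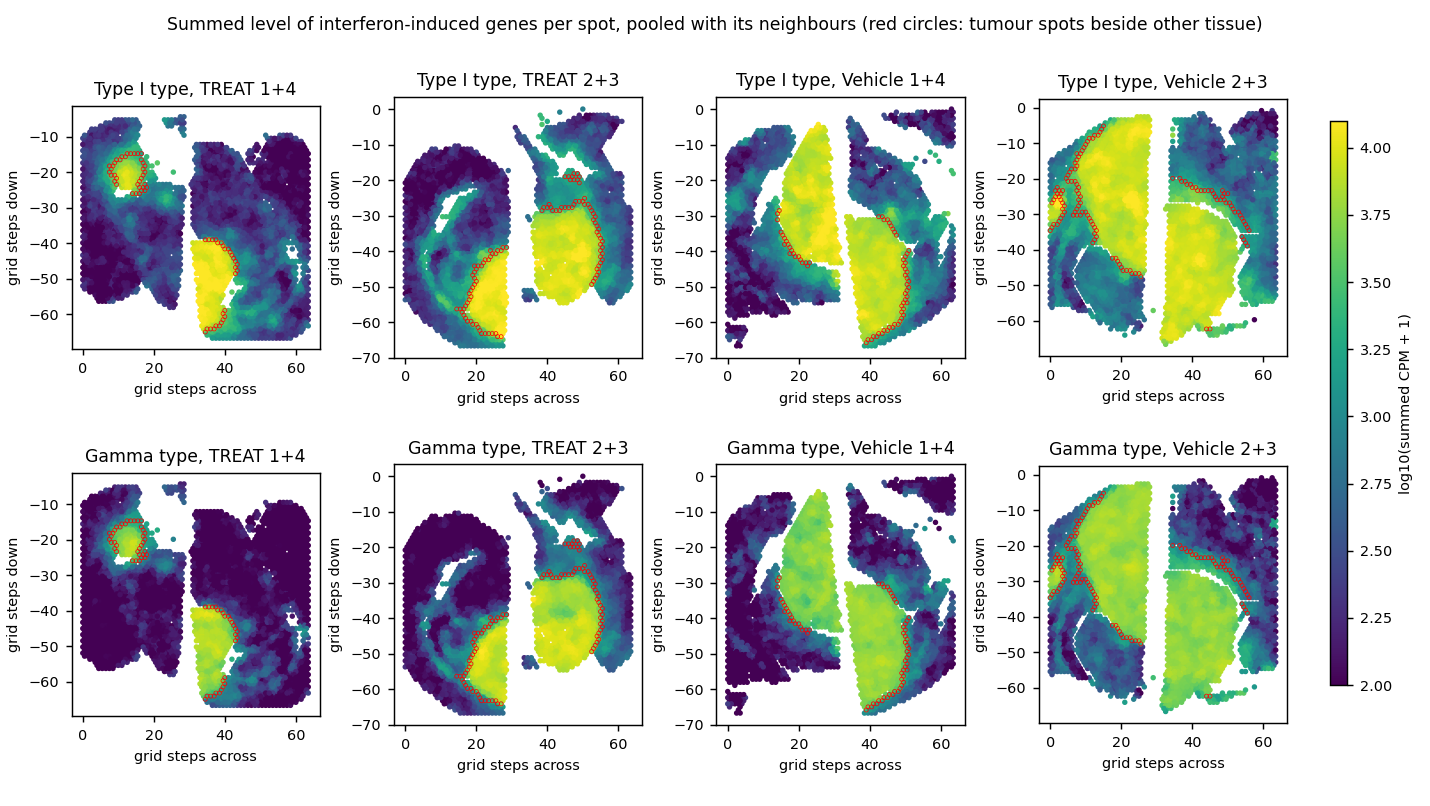
Maps of the 4 capture areas (TREAT left of Vehicle), each point a spot placed by its grid position in grid steps. Colour gives the summed CPM of the type I type members (upper maps) or the gamma type members (lower maps), pooled over the spot and its neighbours, as log10(CPM + 1). Red circles mark the tumour spots that touch other tissue. The bright regions are the 370, 804, 1090 and 1721 tumour spots.

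Among the antiviral effectors, Isg15, a ubiquitin-like protein that is attached to other proteins, had 1106, 859, 555 and 697 CPM in tumour spots of TREAT 1+4, TREAT 2+3, Vehicle 1+4 and Vehicle 2+3, against 16.7, 24.9, 19.9 and 36.3 CPM in brain spots. Its log2 difference was 4.91 ± 0.24 (SE, edgeR adjusted p = 1.5e-09). Bst2, or tetherin, which holds budding virus particles at the cell surface, averaged 2662 ± 169 CPM in tumour spots and 87.1 ± 32.3 CPM in brain spots (SD, n = 4 areas). Rsad2, or viperin, had 286 to 415 CPM in tumour spots and 4.67 to 12.3 CPM in brain spots. The oligoadenylate synthetases, which make the signal for RNase L, all rose, from Oas1a with a log2 difference of 3.96 ± 0.19 to Oas3 with 5.70 ± 0.25 (SE). Zbp1, a sensor of Z-form nucleic acid, had 733 to 1001 CPM in tumour spots against 9.39 to 30.1 CPM in brain spots, a log2 difference of 5.60 ± 0.26 (SE). Levels of different genes were not set against each other, because the number of probes per gene differs.

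The gamma type members were mostly guanylate-binding proteins (Gbp genes) and immunity-related GTPases (Igtp, Irgm1, Irgm2, Iigp1, Tgtp2), which attack the vacuoles that pathogens live in. Gbp2 had 1244, 1872, 1085 and 1282 CPM in tumour spots, against 15.3, 32.3, 23.4 and 52.9 CPM in brain spots. Gbp2b had the widest zone difference of the 34, with 79.2, 91.5, 33.2 and 50.02 CPM in tumour spots against 0.69, 1.26, 0.83 and 1.45 CPM in brain spots, a log2 difference of 5.87 ± 0.28 (SE, edgeR adjusted p = 1.7e-09). Irf1, the transcription factor that carries on the gamma response, averaged 531 ± 48.6 CPM in tumour spots and 21.2 ± 7.49 CPM in brain spots (SD, n = 4 areas).

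The parts of the complex that reads the type I signal were among the 4 members with the smallest zone differences. Irf9 differed by 1.96 ± 0.13 and Stat2 by 2.74 ± 0.12 on the log2 scale (SE), both with 24.1 CPM or more in every area's brain spots. Ifit3 differed by 2.40 ± 0.18, and Tgtp2 by 2.65 ± 0.30. Ifit3 and Tgtp2 each have a near-identical copy in the mouse genome (Ifit3b and Tgtp1), so their counts may hold the copies' RNA.

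**Figure D2:**
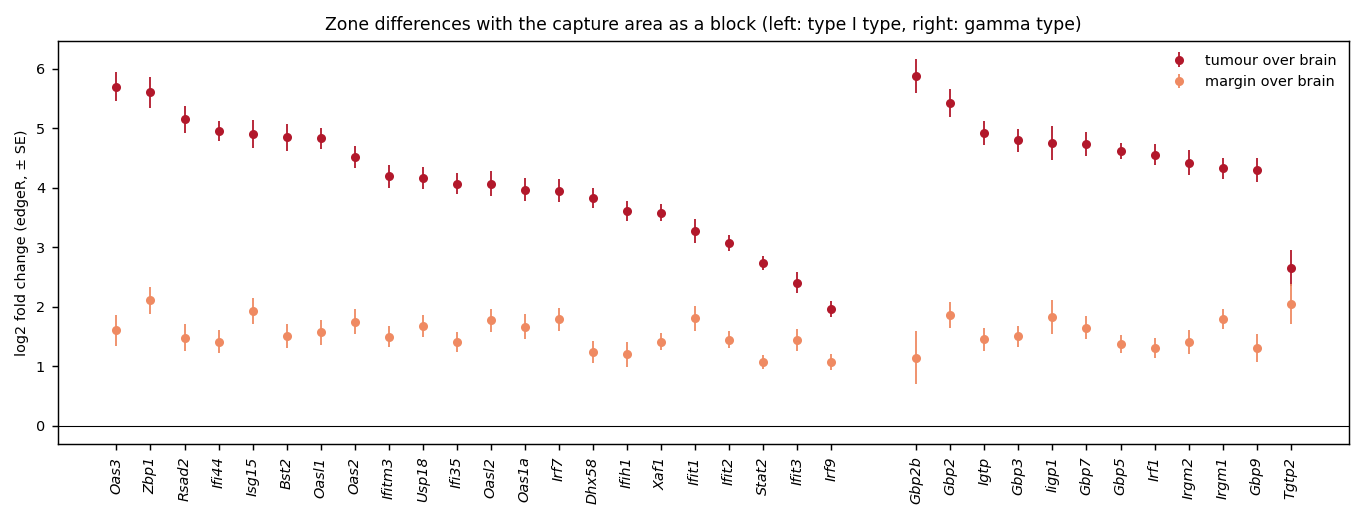
Log2 fold change of each member between zones (edgeR, capture area as a block, 4 areas; bars ± SE), type I type members to the left and gamma type members to the right, each ordered by the tumour difference. Dark points give tumour over brain, from 1.96 (Irf9) to 5.87 (Gbp2b), and light points margin over brain, which lie much closer together.

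Start-site windows were read to show what the members share in sequence. They span 250 bases before to 50 after each gene's start in RefSeq (GRCm38.p6), and 28 of the 34 members had at least one, 32 windows in all. The response element core GAAANNGAAA, searched on both strands and counted also where it overlaps other matches, was found in 10 of 20 type I type windows and 9 of 12 gamma type windows, against 3.44% of 32851 windows in all. The gamma-activated core TTCNNNGAA, which reads the same on both strands, was found in 5 of 20 type I type windows and 6 of 12 gamma type windows, against 8.30% of all. The 9 stretches shown were picked from windows that hold a match, so members without one, such as Irf9, are not among them. Capitals mark matches to either core.
Isg15: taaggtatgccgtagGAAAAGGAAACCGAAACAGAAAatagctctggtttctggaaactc
Ifit1: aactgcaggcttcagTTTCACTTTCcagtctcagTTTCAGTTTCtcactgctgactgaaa
Rsad2: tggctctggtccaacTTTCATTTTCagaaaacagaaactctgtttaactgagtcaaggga
Ifi35: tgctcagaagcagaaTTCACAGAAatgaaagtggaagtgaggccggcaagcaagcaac
Irf1: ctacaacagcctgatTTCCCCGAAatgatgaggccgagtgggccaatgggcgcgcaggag
Gbp2b: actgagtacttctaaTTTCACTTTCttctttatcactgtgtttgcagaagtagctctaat
Igtp: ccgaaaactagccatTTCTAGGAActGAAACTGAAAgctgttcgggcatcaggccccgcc
Irgm2: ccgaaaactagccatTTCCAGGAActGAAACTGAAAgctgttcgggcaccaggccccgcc
Tgtp2: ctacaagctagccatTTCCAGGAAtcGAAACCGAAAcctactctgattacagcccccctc

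These stretches lie at chr4:156200852-156200911 on the minus strand (Isg15), chr19:34640770-34640829 on the plus strand (Ifit1), chr12:26456528-26456587 on the minus strand (Rsad2), chr11:101448404-101448461 on the plus strand (Ifi35) and chr11:53769909-53769968 on the plus strand (Irf1). The others lie at chr3:142594695-142594754 on the plus strand (Gbp2b), chr11:58199496-58199555 on the plus strand (Igtp), chr11:58214887-58214946 on the plus strand (Irgm2) and chr11:49064249-49064308 on the minus strand (Tgtp2). In Igtp, Irgm2 and Tgtp2 the gamma-activated core is followed by the response element core at the same spacing, TTCNNNGAANNGAAANNGAAA. That arrangement, counted after it had been seen in these windows, occurred in 5 of the 32851 windows, of which 3 are these genes, and in 0 of the 20 type I type windows. Irgm2 and Igtp lie near each other on chromosome 11, at 58214977 to 58222783 and 58199556 to 58207592. A match describes letters in a window and says nothing of whether a factor was bound there.

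The margin held intermediate levels. Of the 34 members, 33 were higher in margin than in brain spots by edgeR's test, against 4.99% of all genes tested, and Gbp2b was not called (log2 difference 1.14 ± 0.44, SE, adjusted p = 0.13). The median log2 difference was 1.503 over the type I type and 1.48 over the gamma type, against -0.12 over all genes tested. Between tumour and margin spots, 33 members were higher in the tumour, against 31.6% of all genes tested, and Tgtp2 was not called (0.61 ± 0.30, SE, adjusted p = 0.093). The margin calls rest on how the tumour is drawn. With 15 listed mesenchymal glioma genes in place of proliferation genes, 2 members were called, against 26 of 18671 genes tested that were higher. Without pooling over neighbours 1 member was called, against 25 of 15186 genes tested that were higher. Brain spots then numbered only 1 and 17 in TREAT areas, against 178 and 66 in Vehicle areas.

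By distance the decline was steep. Summed type I type CPM at 2 steps inside the tumour edge was 7766 and 6934 in TREAT areas, against 7107 and 5729 in Vehicle areas. At 1 step outside it was 1924 and 1844 in TREAT areas, against 1887 and 1709 in Vehicle areas. At 10 steps outside it was 275 and 382 in TREAT areas, against 459 and 551 in Vehicle areas. The gamma type sums at 1 step outside were 984 and 906 CPM in TREAT areas, against 887 and 929 CPM in Vehicle areas.

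**Figure D3:**
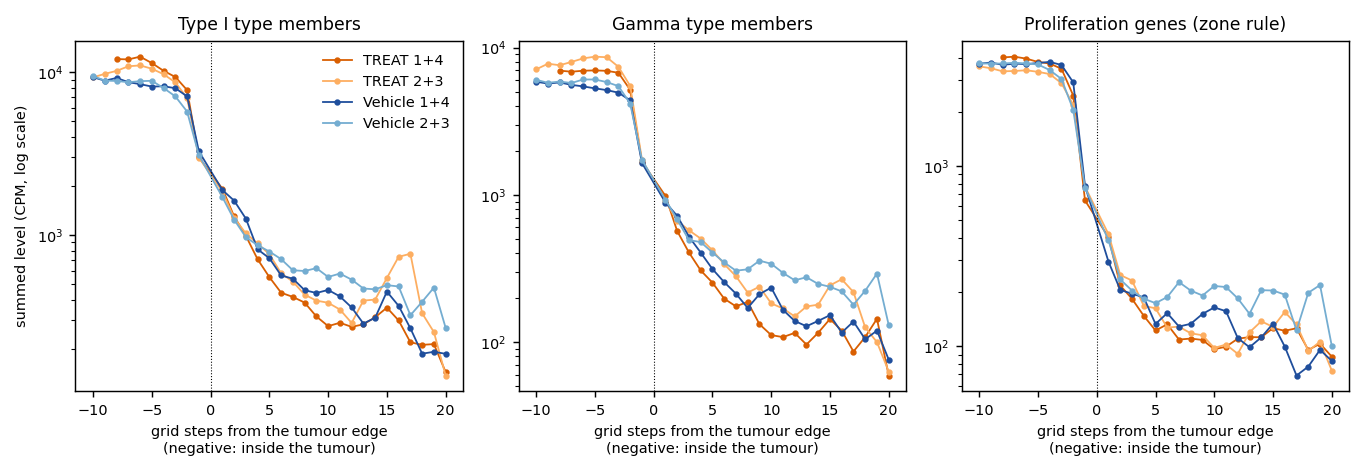
Summed CPM (log axis) of the type I type members, the gamma type members and, for comparison, the proliferation genes that set the tumour zone, against the distance from the tumour edge in grid steps (negative values inside). One line per capture area joins rings of at least 10 spots. All 4 lines drop across the edge, the type I type from 7766, 6934, 7107 and 5729 CPM at 2 steps inside to 1924, 1844, 1887 and 1709 CPM at 1 step outside.

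With brain set at 0 and tumour at 100, the margin stood at 11.4% and 9.90% for the type I type in TREAT areas and at 14.1% and 8.92% in Vehicle areas. For the gamma type it stood at 8.39% and 6.54% in TREAT areas and at 9.83% and 7.19% in Vehicle areas, below the type I type in each of the 4 areas. Some members were much less confined to the tumour than these sums: the margin stood at 58.4% for Tgtp2, 42.1% for Ifit3, 39.9% for Irf9 and 30.5% for Ifit1, over the means of the 4 areas. For Tgtp2 this scale hides a peak at the tumour edge. Tumour spots within 2 steps of the edge held 53.2 and 37.2 CPM in TREAT areas and 34.7 and 47.3 CPM in Vehicle areas. Farther inside it had 23.1 and 11.6 CPM in TREAT areas and 10.8 and 14.6 CPM in Vehicle areas. At the other end, it stood at 1.89% for Gbp2b, 3.99% for Oas3, 5.70% for Ifi44 and 5.86% for Rsad2. The ratio of summed type I type to gamma type CPM was lowest in the tumour in each area: 1.58 and 1.26 in TREAT areas and 1.58 and 1.51 in Vehicle areas, against 2.33, 1.99, 2.30 and 1.89 in brain spots in the same area order. These ratios depend on which genes were listed and describe the zones only.

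RNA can move sideways on such slides, and spots outside the tissue but 1 step from the tumour still held type I type members at 9160 and 8667 CPM in TREAT areas, against 7915 and 6762 CPM in Vehicle areas. Those spots had 7507 and 7582 UMIs each on average in TREAT areas, against 4699 and 4456 in Vehicle areas. The part of such movement in the margin levels was not tested.

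Marker genes of other cells were counted beside these levels. Macrophage markers, 8 genes, summed to 208 to 320 CPM in tumour spots over the 4 areas, against 43.3 to 72.7 CPM in brain spots, with none at 0 in either zone. T and NK cell markers, 12 genes, summed to 135 to 185 CPM in tumour spots, against 16.8 to 26.5 CPM in brain spots, with Ncr1 at 0 in the brain spots of Vehicle 1+4. Microglial markers, 7 genes, summed to 268 to 521 CPM in tumour spots, against 306 to 563 CPM in brain spots, and were highest in the margin, at 670 to 1212 CPM. The part of these cells in the zone differences was not tested.

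Within the tumour the 2 types of members varied together from spot to spot, given here as a description since pooled neighbouring spots share counts. Spearman's correlation between the summed type I type and gamma type CPM of pooled tumour spots was 0.79 and 0.75 over the 370 and 804 tumour spots of TREAT areas, against 0.46 and 0.70 over the 1090 and 1721 of Vehicle areas. The median correlation between 2 members was 0.69, 0.62, 0.43 and 0.51 within the type I type, 0.76, 0.74, 0.43 and 0.46 within the gamma type, and 0.57, 0.54, 0.19 and 0.41 across the types, for TREAT 1+4, TREAT 2+3, Vehicle 1+4 and Vehicle 2+3. The 90th percentile of summed type I type CPM was 3.48 and 3.19 times the 10th in TREAT areas, against 1.81 and 2.49 times in Vehicle areas. The share of tumour spots within 2 steps of the edge moved the same way, 33.8% and 23.3% in TREAT areas against 12.8% and 13.8% in Vehicle areas, and its part in these spreads and correlations was not tested. Markers of brain tissue ran opposite to the type I type sum over the same spots: Spearman's correlation with it was -0.85 and -0.63 in TREAT areas, against -0.34 and -0.56 in Vehicle areas, for astrocyte markers, and -0.80 and -0.61 in TREAT areas, against -0.29 and -0.53 in Vehicle areas, for oligodendrocyte markers. For the proliferation genes it was 0.80 and 0.40 in TREAT areas, against 0.05 and 0.39 in Vehicle areas. The part of these markers in the shared variation of the members was not tested.

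The pathway's own components were described from a list of 37 symbols, of which 31 were tested between zones. The list was 6 ligands, 6 receptors, 7 kinases and transducers, 11 sensors and adaptors, 4 feedback inhibitors and 3 chemokines. Some sensors and adaptors were listed under both an old and a new symbol, such as Tmem173 and Sting1, and 8 of them were tested. In tumour against brain spots 23 were higher and 2 lower by edgeR's test, against 6271 higher and 6473 lower of all 18467 genes tested. Cxcl10, a chemokine that draws T cells, had a log2 difference of 5.60 ± 0.27, and Cxcl9, a classical gamma target, 4.51 ± 0.27 (SE). Among the receptor chains, Ifngr1 was higher (1.54 ± 0.13) and Ifngr2 lower (-0.66 ± 0.09, SE, adjusted p = 3.6e-05) in tumour than in brain spots; Ifngr2 had 32.2, 32.6, 25.1 and 29.5 CPM in tumour spots against 40.9, 41.4, 39.3 and 47.6 CPM in brain spots. The other lower gene was Pias1, an inhibitor of the pathway (-0.30 ± 0.12, SE, adjusted p = 0.033).

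Of the ligands, Ifng alone was higher in the tumour (2.34 ± 0.34, SE, edgeR adjusted p = 3.9e-05), with 4.91, 3.14, 2.90 and 3.49 CPM in tumour spots, against 0.62, 0.86, 0.28 and 0.79 CPM in brain spots. That is 53, 77, 63 and 124 UMIs over all tumour spots of an area. Ifnb1 had 0 UMIs in every zone of every area. Ifna2, Ifnl2 and Ifnl3 were not called, and each stayed at or under 1.78 CPM in every zone and area.

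TREAT was next set against Vehicle within each zone. In tumour spots, 5 type I type members were lower in TREAT and 1 gamma type member was higher by edgeR's test, against 16.6% of 19902 genes tested that were lower and 10.1% that were higher. In either direction 26.7% of all genes tested were called, so the share of the members, 6 of 34, was no larger. Under scaling to library totals in place of TMM, the median of all genes was 0.54, against 0.11 under TMM, and the split of the members turned round, to 9 higher and 3 lower, against 36.5% of all genes tested that were higher and 5.99% that were lower under that scaling. The median log2 difference of the members was -0.14 under TMM and 0.29 under library totals, in both cases about 0.25 below that of all genes tested, but with the test limited to genes of at least 10 CPM it was 0.17, which was above all genes' 0.01. No direction is therefore given for the list as a whole.

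**Figure D4:**
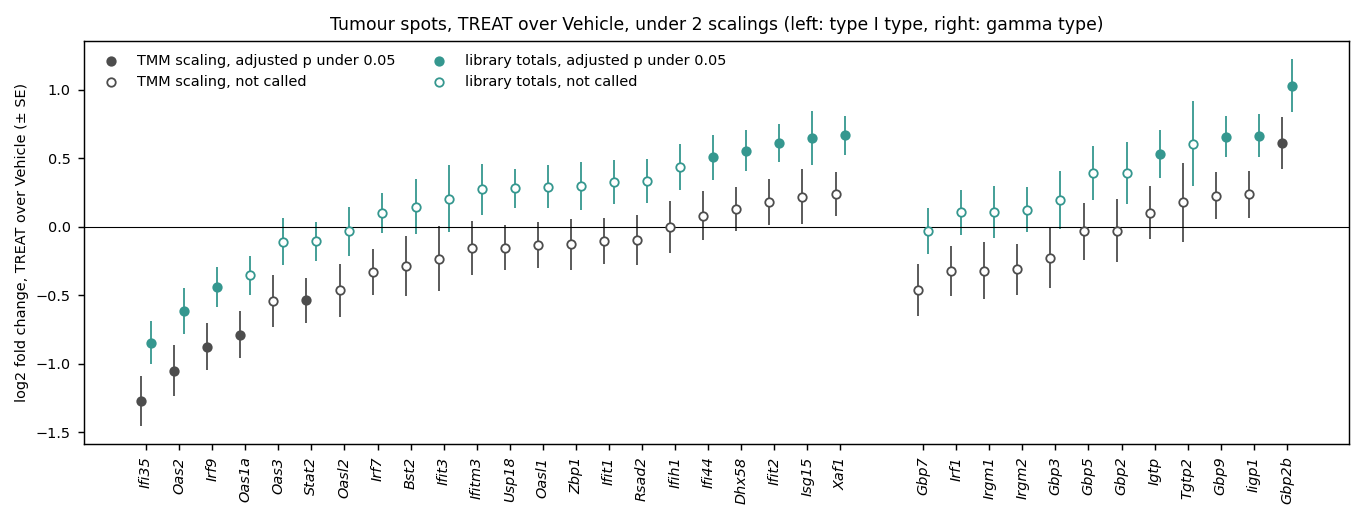
Log2 fold change of TREAT over Vehicle in tumour spots for each member (edgeR, n = 2 areas per group; bars ± SE) under TMM scaling (grey) and library totals (green), type I type members to the left and gamma type members to the right. Filled points passed an adjusted p of 0.05. Ifi35, Oas2 and Irf9 lie below 0 and Gbp2b above 0, filled, under both scalings, while 15 of the 28 members not called under TMM change sign under library totals.

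The member that differed most was Ifi35, an interferon-induced leucine zipper protein encoded on chromosome 11 at 101448412 to 101458701. It had 276 and 307 CPM in tumour spots of TREAT areas, against 490 and 554 CPM in those of Vehicle areas. In margin spots it had 55.3 and 48.9 CPM in TREAT areas, against 75.6 and 70.3 CPM in Vehicle areas, and in brain spots 12.3 and 18.1 CPM in TREAT areas, against 23.2 and 36.8 CPM in Vehicle areas. The groups did not overlap in any of the 3 zones, which also held, with TREAT lower, for Oas1a, Oas2 and Irf9. In the tumour it was 2.41-fold lower in TREAT (log2 -1.27 ± 0.18, SE, edgeR adjusted p = 0.00041). It stayed lower past the threshold in every other setting tried, with the smallest difference under library totals (-0.84). All 4 tumour pieces of TREAT areas, at 259 to 325 CPM, lay below all 4 of Vehicle areas, at 452 to 567 CPM.

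Oas2, an oligoadenylate synthetase, had 88.5 and 67.6 CPM in tumour spots of TREAT areas, against 128 and 109 CPM in those of Vehicle areas (log2 -1.05 ± 0.19, SE, edgeR adjusted p = 0.0016). Irf9, the DNA-binding part of the type I complex, had 140 and 135 CPM in tumour spots of TREAT areas, against 199 and 174 CPM in those of Vehicle areas (-0.87 ± 0.17, SE, edgeR adjusted p = 0.0030). The groups did not overlap for either gene, and both were also lower under library totals, by -0.61 and -0.44. Their tumour pieces did overlap: Irf9 had 118 to 180 CPM in the 4 TREAT pieces and 173 to 214 CPM in the 4 Vehicle pieces, and Oas2 had 48.9 to 115 CPM and 102 to 156 CPM.

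Oas1a had 84.9 and 92.0 CPM in tumour spots of TREAT areas, against 119 and 107 CPM in those of Vehicle areas (-0.79 ± 0.17, SE, edgeR adjusted p = 0.0053), and missed the threshold under library totals (adjusted p = 0.062). Stat2, the partner of Irf9, had 221 and 200 CPM in TREAT areas, against 227 and 224 CPM in Vehicle areas (-0.54 ± 0.17, SE, edgeR adjusted p = 0.031), so the areas lay close together on the CPM scale. It missed the threshold under library totals (-0.10, adjusted p = 0.56). Without Vehicle 1+4, which left a lone area in its group, only Ifi35 of the members was still called. Calls also became much rarer over all genes tested in that fit, so the loss was not particular to the members.

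Gbp2b, on chromosome 3 at 142594816 to 142619179, was the one member higher in TREAT. It had 79.2 and 91.5 CPM in tumour spots of TREAT areas, against 33.2 and 50.02 CPM in those of Vehicle areas, with no overlap (log2 0.61 ± 0.19, SE, edgeR adjusted p = 0.031; 1.03 under library totals). In brain spots it had 0.69 and 1.26 CPM in TREAT areas, against 0.83 and 1.45 CPM in Vehicle areas, which overlap. Its call was lost without TREAT 2+3 (0.48, adjusted p = 0.084) and without Vehicle 1+4 (0.40, adjusted p = 0.28). One of the 4 TREAT pieces, with 52.1 CPM, lay below the highest of the 4 Vehicle pieces, with 53.5 CPM. Its neighbours in the chromosome 3 cluster were not called: Gbp2 differed by -0.03 ± 0.23, Gbp3 by -0.23 ± 0.22, Gbp5 by -0.03 ± 0.21 and Gbp7 by -0.46 ± 0.19 (SE).

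**Figure D5:**
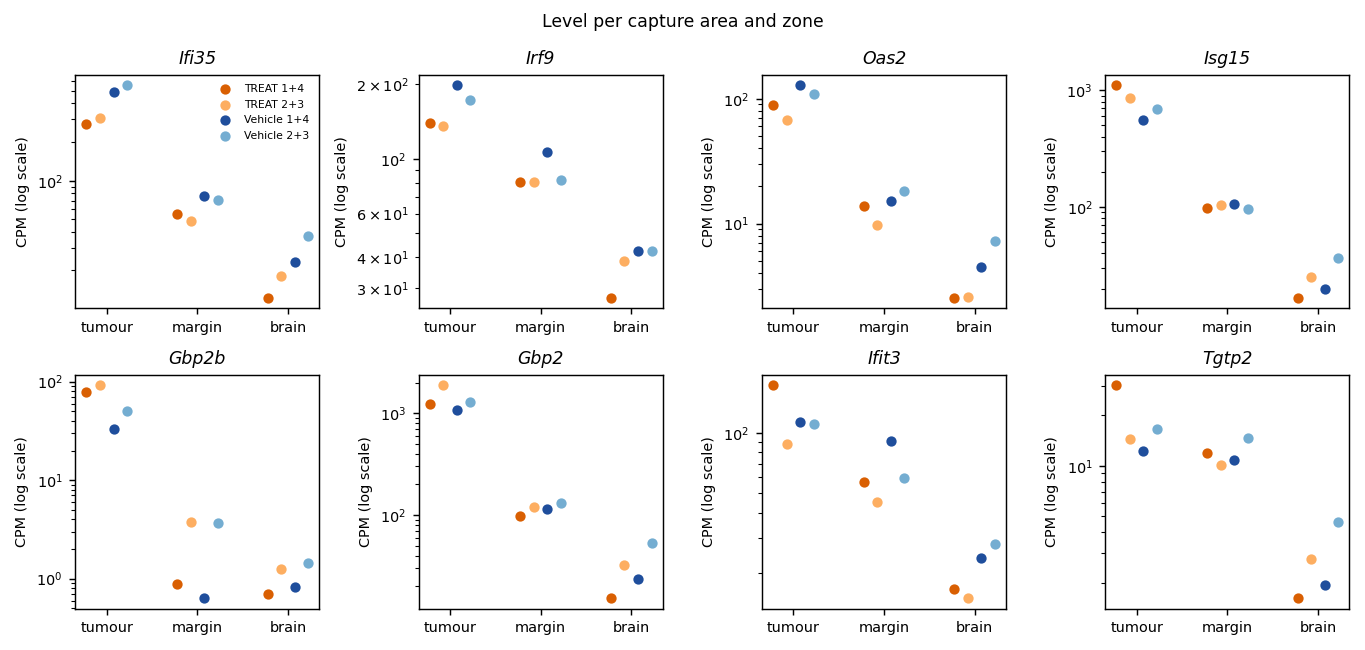
CPM per capture area and zone (log axis) of 8 members, TREAT areas in orange and left of Vehicle areas in blue. Ifi35, Irf9 and Oas2 show both TREAT areas below both Vehicle areas in tumour, margin and brain. Gbp2b shows both TREAT areas above in the tumour, and Tgtp2 stays at 10.1 to 14.7 CPM in the margin.

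The most abundant members gave values that turn on the scaling. Isg15, at 1106 and 859 CPM in tumour spots of TREAT areas against 555 and 697 CPM in those of Vehicle areas, did not overlap between groups, yet differed by 0.22 ± 0.20 under TMM (SE, edgeR adjusted p = 0.39) and by 0.65 under library totals (adjusted p = 0.028). Bst2 had 2789 and 2814 CPM in TREAT areas, against 2581 and 2463 CPM in Vehicle areas, with -0.28 ± 0.22 under TMM (SE). Igtp had 923 and 1080 CPM in TREAT areas, against 694 and 688 CPM in Vehicle areas, with 0.10 ± 0.19 under TMM (SE). By CPM, both TREAT areas lay above both Vehicle areas for 19 of the 34 members in tumour spots, against 64.6% of all genes tested, and below for 5, against 14.1%. In margin spots 4 members lay above, against 22.5% of all genes tested, and 10 below, against 16.9%. In brain spots 0 lay above, against 39.6%, and 11 below, against 13.8%. Oligodendrocyte markers, 6 genes with none at 0, summed to 4092 and 2237 CPM in tumour spots of TREAT areas, against 512 and 830 CPM in those of Vehicle areas. Choroid plexus and ependyma markers, 5 genes with none at 0, summed to 4393 and 82.8 CPM in TREAT areas, against 68.9 and 187 CPM in Vehicle areas. The tumour spots at least 3 steps inside the edge were tested alone; oligodendrocyte markers summed there to 841 and 841 CPM in TREAT areas against 275 and 460 CPM in Vehicle areas, and choroid plexus and ependyma markers to 217 and 65.2 CPM in TREAT areas against 57.4 and 181 CPM in Vehicle areas. In those spots Ifi35 (-1.21), Oas2 (-0.94), Irf9 (-0.86) and Oas1a (-0.72) were lower and Gbp2b (0.73) was higher.

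Of the pathway genes, 6 of the 32 tested in tumour spots were lower in TREAT, against 16.6% of all genes tested, and none was higher, against 10.1%. Socs1, the feedback inhibitor that binds the receptor kinases, had 74.3 and 81.3 CPM in TREAT areas, against 138 and 120 CPM in Vehicle areas, with no overlap (-1.16 ± 0.17, SE, edgeR adjusted p = 0.00056). It was lower past the threshold in every setting tried, with -0.73 under library totals. The others were the transcription factors Irf3 (-0.75 ± 0.17) and Irf8 (-0.61 ± 0.19), the DNA sensor Cgas (-0.55 ± 0.17), its adaptor Tmem173, or STING (-0.62 ± 0.17), and the RNA-sensing adaptor Mavs (-0.52 ± 0.16, SE), and none of these 5 was called under library totals. There the list held 9 higher and 1 lower, against 36.5% and 5.99% of all genes tested.

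Outside the tumour no member was called between TREAT and Vehicle. In margin spots the count was 0 of 34 by edgeR's test, against 0.0074% of the 13506 genes tested, and DESeq2 called 0. An unadjusted p under 0.05 was found there for 2 members, against 1038 of all genes tested. In brain spots the count was 0 of 34, against 0.0% of all 19071 genes tested. There 14 members had an unadjusted p under 0.05 by edgeR's test, against 3166 of all genes tested. DESeq2 called 2 members, both lower, against 1.53% of all genes lower by that test. In brain spots 33 of the 34 log2 differences were below 0, with a median of -0.54, against 0.02 over all genes tested. Ifi35 (-1.11 ± 0.27) and Oas2 (-1.32 ± 0.31, SE) were among the largest, both with an edgeR adjusted p of 0.21. Without TREAT 2+3, which had the higher sum of the 2 TREAT areas, 14 members were lower past the threshold, against 1.02% of all 18079 genes tested there. The proliferation genes, which mark dividing cells, summed to 106 and 116 CPM in brain spots of TREAT areas, against 127 and 190 CPM in Vehicle areas. Both TREAT areas thus lay below both Vehicle areas, while the summed CPM of either type of members overlapped between the groups. Endothelial markers were also lower in both TREAT areas, at 138 and 131 CPM against 202 and 188 CPM in Vehicle areas. So were microglial markers, at 420 and 306 CPM against 459 and 563 CPM, and astrocyte markers, at 3070 and 3245 CPM against 3956 and 3468 CPM. None of these 18 genes was at 0. Other lists had a higher mean in TREAT areas, such as meningeal markers, at 561 against 457 CPM. Choroid plexus and ependyma markers averaged 2718 ± 2831 CPM in TREAT areas, against 883 ± 1188 CPM in Vehicle areas (SD). The brain spots also lay at other distances, since spots at least 20 steps from the tumour edge numbered 816 and 450 in TREAT areas, against 230 and 98 in Vehicle areas. The part of these measures in the brain values was not tested.

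Whether the treatment difference itself changed between zones was tested as an interaction. No member passed for tumour minus brain, against 1.44% of the 18467 genes tested. Of the 34 estimates, 30 were above 0, with a median of 0.54 against 0.04 over all genes. An unadjusted p under 0.05 was found for 9 members, against 3514 of all genes tested. No member passed for margin minus brain, against 0.0% of the genes tested. An unadjusted p under 0.05 was found for 2 members, against 896 of all genes tested. DESeq2 also called 0 members in both. In simulated data of the same size, with known changes, the interaction test recovered 14% of 2-fold and 69% of 4-fold changes. The tumour comparison of TREAT with Vehicle recovered 40% and 78%. The simulated spread left out differences between areas that the zones share, so recovery of TREAT against Vehicle changes may be lower in the real data.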

How the data were processed

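The authors deposited raw UMI counts per feature and spot for 4 capture areas, whole numbers with no normalization, per the file headers and values. Per the submitters' processing notes, Space Ranger 2.1.1, Seurat and R 4.4.1 were used, with the build mm10; the probe set and the way tissue was marked are not given in the sources used here. Features with a deprecated identifier (304) were left out. A spot was kept if it lay over tissue and held 500 UMIs or more. The 4 areas shared 1825 spot barcodes, which mark grid positions. Spots can hold several cells, so no doublet caller was run.

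The zone score was the pooled CPM of the proliferation list, split at Otsu's threshold of log2(CPM + 1). Spots within 0.5 log2 units of it numbered 99 and 199 in TREAT areas and 105 and 242 in Vehicle areas. Counts were summed per area and zone, filtered (filterByExpr), scaled (TMM) and tested with edgeR 4.0.16 in R 4.3.3 (quasi-likelihood, two-sided, Benjamini-Hochberg over all genes tested), checked on simulated data. TREAT was set against Vehicle within each zone over 4 sums, and zones and interactions were fitted over 12 sums with the area as a block. Sequences and gene positions came from RefSeq tables of GRCm38.p6 (mm10).

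Members, lists and tests were chosen with earlier results of these data known. Values per area are given for called members (at most 6 per direction and class with the smallest p), the 4 most abundant members of each class in the tumour, and members at the ends of a described range. Alternatives were DESeq2 1.42.0, library totals, filters on genes and spots, other tumour scores and thresholds, margins of 2 and 5 steps, leaving out each area, and the area number as a block. Whether the same area numbers pair TREAT with Vehicle areas was checked by correlating the 2 groups' differences between numbers over 11349 genes. The correlation was -0.16 in tumour, 0.11 in margin and -0.30 in brain spots. With 2 areas per group this check cannot exclude a pairing, and the main tests used no such block. One gene of the pathway list is not reported here.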

Additional observations from a re-analysis of the deposited data

Results flagged for a closer look

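Spots outside the tissue were not part of any comparison, yet they held interferon-induced RNA beside the tumour. By CPM, the type I type members there were higher in TREAT than in Vehicle areas. At 1 grid step from the tumour, the lowest TREAT area had 8667 CPM of summed type I type members, against 7915 CPM in the highest Vehicle area. The 2 TREAT areas had 4057 and 6308 UMIs of these genes there, against 5876 and 6900 UMIs in the 2 Vehicle areas. At 2 to 3 steps the order was the other way, with 3526 and 3757 CPM in TREAT areas, against 5299 and 4841 CPM in Vehicle areas. At 4 steps or more it was 796 and 1437 CPM in TREAT areas, against 1562 and 1728 CPM in Vehicle areas. The gamma type members overlapped between groups at 1 step, with 4990 and 7790 CPM in TREAT areas, against 5081 and 4609 CPM in Vehicle areas.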

How the results depend on the processing

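All 34 members stayed higher in tumour than in brain spots under every alternative run, and the 33 members higher in tumour than in margin spots did too. For margin against brain spots, 33 members were called, but 2 with the mesenchymal glioma list as the tumour score and 1 without pooling over neighbours. Of all genes tested, 26 of 18671 and 25 of 15186 were higher under these settings. For TREAT against Vehicle in tumour spots, 6 members were called. That compares with 12 under library totals (9 higher, 3 lower), 16 without pooling (all lower) and 9 with genes of at least 10 CPM (5 higher, 4 lower). The count also moved when an area was left out. It was lowest without Vehicle 1+4, where calls became much rarer over all genes tested too. Without pooling Gbp2b turned round, to -0.34. That setting put 22.4 CPM as the tumour threshold in place of 590 CPM. Its tumour zone took in 78.4% and 76.0% of kept spots in TREAT areas, against 63.5% and 80.3% in Vehicle areas. The main tumour zone took in 11.0% and 26.7%, against 34.5% and 49.4%. The 16 calls and the turned Gbp2b value therefore do not describe the tumour alone. Among all 20242 genes tested without pooling, 2195 passed as higher and 3252 as lower. Among the 10346 genes of at least 10 CPM, 793 passed as higher and 1246 as lower. In margin spots, where 0 members were called, leaving out 1 area gave 0 to 1. In brain spots, where 0 were called, DESeq2 gave 2, the crossed replicate block 2, and leaving out 1 area 0 to 14, the highest without TREAT 2+3. For the interaction (tumour minus brain), 0 members were called and leaving out 1 area gave 0 to 1. The cause of these changes was not tested. The crossed pairing, chosen after seeing the data, called 8 members in tumour spots. Of all 19902 genes tested there, it called 1640 as higher and 4231 as lower. With the replicate block 6 members were called in tumour spots and 0 in margin and brain spots. Over all genes tested, that block called 3933 as higher and 3202 as lower of 19902 in tumour spots, and 0 in margin and brain spots. Limiting the test to tumour spots at least 3 steps inside the edge, also chosen after seeing the data, called 5. Of all 19780 genes tested in those spots, 2029 were higher and 3482 lower. With 2 areas per group and pieces not tied to animals, the simulated recovery of 2-fold changes was 20% in margin and 27% in brain spots. Real recovery may be lower, since the simulated spread left out differences between areas that the zones share. Thus 0 calls there do not show equal levels. Where an area was left out, the lone area of its group was assumed to vary like the other group's.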

Other observations

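A band of brain far from the tumour stood out for the type I type members in TREAT 2+3. Summed type I type CPM there was 543, 733 and 765 at 15, 16 and 17 grid steps from the tumour edge, in rings of 69, 61 and 59 spots, against 395 CPM at 13 steps. In the other 3 areas it was 219 to 491 CPM at 15 to 17 steps. The gamma type sums at these steps stood out less, at 242, 267 and 218 CPM in TREAT 2+3, against 237, 221 and 179 CPM in Vehicle 2+3. The type I type members also differed between the 2 tumour pieces of TREAT 1+4, with 6603 CPM over 109 spots in the left piece and 10924 CPM over 261 spots in the right one, while the other 6 tumour pieces had 8015 to 10768 CPM. In that left piece Tgtp2 had 63.7 CPM, against 10.1 to 25.4 CPM in the other 7 tumour pieces. The marker sums of the 2 pieces differed as well, with 2252 CPM of proliferation genes in the left piece and 3679 CPM in the right one, 1017 and 336 CPM of microglial markers, and 306 and 153 CPM of neuronal markers. Their part in the difference was not tested.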
